A study of Mus musculus with 18 samples.

Results

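The effect of Wnt5a on gene expression in long-term blood stem cells (LT-HSC, long-term haematopoietic stem cells) was examined as its average over 2 genotypes, in 12 of the 18 RNA-seq libraries of the study. These were the libraries without the reserve label: 6 with the Wnt5a label and 6 controls, in 4 groups of 3. Wnt5a and WT libraries came from wild-type mice, and KO Wnt5a and KO Ctrl libraries from mice that lack DERARE, an element of the Hoxb locus that responds to retinoic acid. The averaged effect was the mean of the difference between Wnt5a and WT and the difference between KO Wnt5a and KO Ctrl, so each genotype was set against its own control. All cells were sorted from bone marrow as Lineage-, Sca-1+, c-Kit+, CD34-, Flk2- and CD49b-low. KO Wnt5a is labelled as a rescue of the knockout, and KO Ctrl as its control. How and for how long Wnt5a was given, and whether the 3 libraries of a group came from separate animals, is not given in the sources used here, so the p-values rest on the spread of libraries, which may be technical.

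Wnt5a is a secreted Wnt ligand that mostly acts without beta-catenin, through Frizzled receptors and the co-receptors Ror2 and Ryk, on calcium signalling, planar polarity and small GTPases. In the marrow it is known for its influence on the quiescence and ageing of stem cells. LT-HSC are the rare, mostly resting cells that maintain all blood lineages over a lifetime, and a share of them is known to express platelet genes. The p53 protein is a transcription factor that restrains division and induces death of damaged cells, and it is active at a low level in resting stem cells.

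The deposited values were FPKM, fragments scaled to the length of the transcript and to each library's mapped fragments. The values implied 21400000 to 40700000 fragments per library, with the lowest depth in KO Ctrl replicate 1, and 11894 to 12244 genes reached 1 FPKM in a library. The label of the Wnt5a group names no genotype, and the column names of the table place it with wild type. AA465934, a noncoding transcript chosen after its values were seen, was at 149.8 to 181 FPKM in Wnt5a, 156 to 188 in WT, 1.97 to 6.36 in KO Wnt5a and 2.18 to 4.44 in KO Ctrl. Of the sort gate genes, Kit ranged from 11.6 to 33.6 FPKM over the 12 libraries. Ly6a, which encodes Sca-1, was at 99.1 to 143 FPKM in Wnt5a, against 85.8 to 95.7 in WT. In the knockout it was at 165 to 201 in KO Wnt5a, against 163 to 201 in KO Ctrl. RNA of Cd34, whose protein the gate excluded, was present at 322 to 357 FPKM in Wnt5a, against 341 to 370 in WT. It was at 299.8 to 312 in KO Wnt5a, against 371 to 437 in KO Ctrl. By limma, Cd34 was lower within the knockout (log2 fold change -0.39, adjusted p = 0.0145). Neither Ly6a nor Cd34 was called in the averaged effect. Flt3 and Itga2, the genes of Flk2 and CD49b, did not pass the filter, at no more than 1.87 and 0.408 FPKM. The 5 LT-HSC markers Procr, Hlf, Mecom, Slamf1 and Fgd5 were all measured, with a sum of 60.9 to 73.1 FPKM in Wnt5a, 55.8 to 60.2 in WT, 60.4 to 66.2 in KO Wnt5a and 52.97 to 66.8 in KO Ctrl. Wnt5a itself was not raised in the libraries that carry its label: it stayed at or under 0.078 FPKM in all 12, below the filter, and was at 0 in 5 of them.

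Promoter sequences are shown for 5 called genes of the groups described first, the p53 targets and the genes of the platelet and basophil lineages, because these 5 hold a match to the motif searched for their group. Phlda3 and Mcpt8, which had larger effects than some of them, held none and are not shown. They are RefSeq windows on GRCm38.p6, from 250 bases before to 50 bases after the annotated start, written 5′ to 3′ on the strand of the gene. In the first 3, capitals mark matches to the consensus half-site of p53, which reads the same on both strands. In the other 2, capitals mark GATAA, the core bound by GATA factors, on either strand. The windows are chr17:29090729-29091028, plus strand for Cdkn1a, chr11:40755237-40755536, minus strand for Ccng1, chr7:45466849-45467148, minus strand for Bax, chr6:87777820-87778119, plus strand for Gp9 and chr1:173227180-173227479, minus strand for Fcer1a.
Cdkn1a: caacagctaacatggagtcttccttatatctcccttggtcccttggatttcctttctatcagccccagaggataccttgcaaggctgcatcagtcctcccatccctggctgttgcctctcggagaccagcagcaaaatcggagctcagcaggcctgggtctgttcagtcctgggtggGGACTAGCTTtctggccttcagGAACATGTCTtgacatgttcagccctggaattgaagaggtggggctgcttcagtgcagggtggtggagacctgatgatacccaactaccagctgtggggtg
Ccng1: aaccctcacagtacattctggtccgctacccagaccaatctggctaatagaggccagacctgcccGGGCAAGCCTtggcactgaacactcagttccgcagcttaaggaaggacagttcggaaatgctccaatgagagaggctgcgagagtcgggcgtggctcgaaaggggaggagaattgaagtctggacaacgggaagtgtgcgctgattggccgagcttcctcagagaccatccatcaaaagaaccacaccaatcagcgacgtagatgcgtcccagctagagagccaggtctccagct
Bax: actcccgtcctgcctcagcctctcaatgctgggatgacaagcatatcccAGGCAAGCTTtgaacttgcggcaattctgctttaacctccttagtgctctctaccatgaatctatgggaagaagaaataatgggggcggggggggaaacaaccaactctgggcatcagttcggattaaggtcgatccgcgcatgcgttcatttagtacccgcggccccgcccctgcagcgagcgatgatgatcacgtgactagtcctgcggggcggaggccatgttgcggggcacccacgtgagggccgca
Gp9: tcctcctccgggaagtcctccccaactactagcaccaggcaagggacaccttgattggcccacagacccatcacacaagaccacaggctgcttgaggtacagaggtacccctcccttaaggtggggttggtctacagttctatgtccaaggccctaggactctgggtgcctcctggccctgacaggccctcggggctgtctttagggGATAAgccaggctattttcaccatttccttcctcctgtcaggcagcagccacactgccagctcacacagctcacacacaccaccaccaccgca
Fcer1a: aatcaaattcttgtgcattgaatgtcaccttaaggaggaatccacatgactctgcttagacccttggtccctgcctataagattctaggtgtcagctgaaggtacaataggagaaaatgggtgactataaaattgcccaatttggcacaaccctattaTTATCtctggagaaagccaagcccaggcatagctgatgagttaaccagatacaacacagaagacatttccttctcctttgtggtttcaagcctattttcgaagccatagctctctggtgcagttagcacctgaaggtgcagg
Cdkn1a held 2 half-sites, with first bases at -73 and -51 from the start. Ccng1 held 1 at -185 and Bax 1 at -201. The window of Phlda3 and that of the second Cdkn1a start held none. At least 1 half-site occurred in 8.36% of all 32851 windows, in 6.75% of the windows of tested genes and in 13 of 34 windows of the p53 targets that were tested. GATAA occurred once in Gp9, at -43, and once in Fcer1a, at -92, and not in Mcpt8. GATAA was found in 25.4% of all windows and 16.7% of those of tested genes. It occurred in 13 of 27 windows of the tested megakaryocyte and platelet genes, and in 6 of 24 windows of the tested mast cell and basophil genes. Of the 44 genes called below, 36 had at least 1 window, and their 49 windows held the p53 half-site in 4 (8.16%) and GATAA in 10 (20.4%), shares near those of the tested genes. A match describes the letters only, and binding was not measured.

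With Wnt5a, 4 genes of the p53 response fell on average over the genotypes and without overlap in either, among them the cell cycle inhibitor gene Cdkn1a and the apoptosis gene Bax, together with a platelet gene, Gp9. Fewer genes rose, and the basophil protease gene Mcpt8 rose most among the called protein-coding genes. Calls were made with limma on log2(FPKM + 1) at a Benjamini-Hochberg adjusted p under 0.05, over the 12821 genes that reached 1 FPKM in 3 or more of the 12 libraries. This called 44 genes, 0.343% of those tested, of which 17 (0.133%) rose and 27 (0.211%) fell. At an unadjusted p below 0.05 there were 1378 higher (10.7%) and 923 lower (7.2%). The counts given for every gene list below are to be read beside these shares of all genes. Most changes were small and near the threshold: 10 of the 44 exceeded 1 on the log2 scale, and 36 had an adjusted p above 0.03.

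The 44 genes had the same direction in both genotypes, which a call on the average favours, and in 39 of them the Wnt5a and control libraries did not overlap in either genotype. Over all tested genes, 355 (2.77%) were separated in this way in 1 direction and 138 (1.08%) in opposite directions. The number of calls depended strongly on single libraries. It was 655 (5.11% of genes tested, all 44 among them) without Wnt5a replicate 3, and between 2 and 30 without any other single library: 3 without Wnt5a replicate 1 or 2, 11, 30 and 3 without WT replicates 1, 2 and 3, 5, 2 and 2 without KO Wnt5a replicates 1, 2 and 3, and 20, 4 and 9 without KO Ctrl replicates 1, 2 and 3. Wnt5a replicate 3 was the Wnt5a library nearest to the WT mean in 38 of the 44 genes, with a median distance of 0.25 on the log2 scale, against 0.57 and 0.62 for replicates 1 and 2. The calls of Mcpt8 and of the small nucleolar RNA model Gm25436 held whichever library was left out.

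Cdkn1a encodes p21, an inhibitor of cyclin-dependent kinases and the classical target of p53 (ENSMUSG00000023067, chromosome 17, 29090976 to 29100727 in GRCm38). It stood at 82.7, 87.4 and 162 FPKM in Wnt5a, against 194, 207 and 233 FPKM in WT. In the knockout it stood at 34.7, 37.3 and 34.6 FPKM in KO Wnt5a, against 113, 93.6 and 88.9 FPKM in KO Ctrl. The groups did not overlap in either genotype, and Wnt5a replicate 3 was the Wnt5a library closest to WT. The averaged effect was a fall (log2 fold change -1.22, SE 0.16, adjusted p = 0.0211 with limma), at -0.99 in wild type and -1.44 in the knockout.

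Phlda3 encodes a p53-induced inhibitor of Akt signalling (ENSMUSG00000041801, chromosome 1, 135766119 to 135769136). Its values were 27.2, 26.97 and 45.9 FPKM in Wnt5a, against 51.2, 60.3 and 61.96 FPKM in WT, and 11.9, 9.04 and 8.83 FPKM in KO Wnt5a, against 22.4, 23.3 and 32.03 FPKM in KO Ctrl. It fell without overlap in both genotypes (log2 fold change -1.05, SE 0.15, adjusted p = 0.0211). Ccng1, which encodes cyclin G1 (ENSMUSG00000020326, chromosome 11, 40748552 to 40755311), had 92.5, 90.6 and 119 FPKM in Wnt5a, against 146, 126 and 153 FPKM in WT, and 55.4, 45.2 and 49.4 FPKM in KO Wnt5a, against 112, 87.7 and 75.3 FPKM in KO Ctrl. Here too no Wnt5a library reached a control library of its genotype (log2 fold change -0.67, SE 0.11, adjusted p = 0.0326). Bax, which encodes a protein that permeabilizes mitochondria in apoptosis (ENSMUSG00000003873, chromosome 7, 45461697 to 45466898), had 219, 210.2 and 275 FPKM in Wnt5a, against 316, 318 and 355 FPKM in WT. In the knockout Bax had 157, 139 and 160.3 FPKM in KO Wnt5a, against 230.1, 205 and 251 FPKM in KO Ctrl, and of these 4 genes it had the smallest fall and the smallest standard error (log2 fold change -0.54, SE 0.07, adjusted p = 0.0145). Leaving out 1 library at a time, the calls of Cdkn1a, Phlda3, Ccng1 and Bax held in 4, 5, 3 and 7 of 12 fits, and the effect of Cdkn1a stayed between -1.38 and -1.14.

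Among the 32 tested genes of the p53 target list, these 4 were called lower and none was called higher, against 0.211% and 0.133% of all genes. The unadjusted p was below 0.05 for 17 lower and 2 higher genes, beside 7.2% and 10.7% of all genes. In both genotypes 23 of the 32 were below 0, as were 22.02% of all genes tested. The median log2 fold change of the list was -0.21, with -0.28 in wild type and -0.16 in the knockout, beside 0.04, 0.02 and 0.04 over all genes. By library, the median difference from the control mean of the genotype was -0.35, -0.31 and -0.17 in Wnt5a, against -0.01, -0.01 and 0.00 in WT. It was -0.14, -0.24 and -0.17 in KO Wnt5a, against 0.04, -0.06 and -0.03 in KO Ctrl, so all 6 Wnt5a libraries lay below all 6 controls. Bbc3, which encodes the death effector Puma, missed the threshold narrowly (-0.51, adjusted p = 0.051), with 9.95, 11.1 and 15.2 FPKM in Wnt5a, against 17.96, 18.7 and 21.1 FPKM in WT, and 10.01, 10.4 and 10.7 FPKM in KO Wnt5a, against 12.9, 13.1 and 14.9 FPKM in KO Ctrl. Other members below it, chosen like Bbc3 after their values were seen, were Zmat3 (-0.56, adjusted p = 0.058), Sesn2 (-0.67, 0.0635) and Eda2r (-0.67, 0.0898). Mdm2, the target that feeds back on p53, was at 48.2 ± 4.105 FPKM in Wnt5a and 53.1 ± 8.28 FPKM in WT, and 37.9 ± 4.17 FPKM in KO Wnt5a and 40.7 ± 11.2 FPKM in KO Ctrl (SD, n = 3 each), a difference smaller than the spread (-0.10, adjusted p = 0.706). Perp pointed the other way (0.29, adjusted p = 0.269). Trp53 itself was not analysed here because of missing values in the table.

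**Figure D1:**
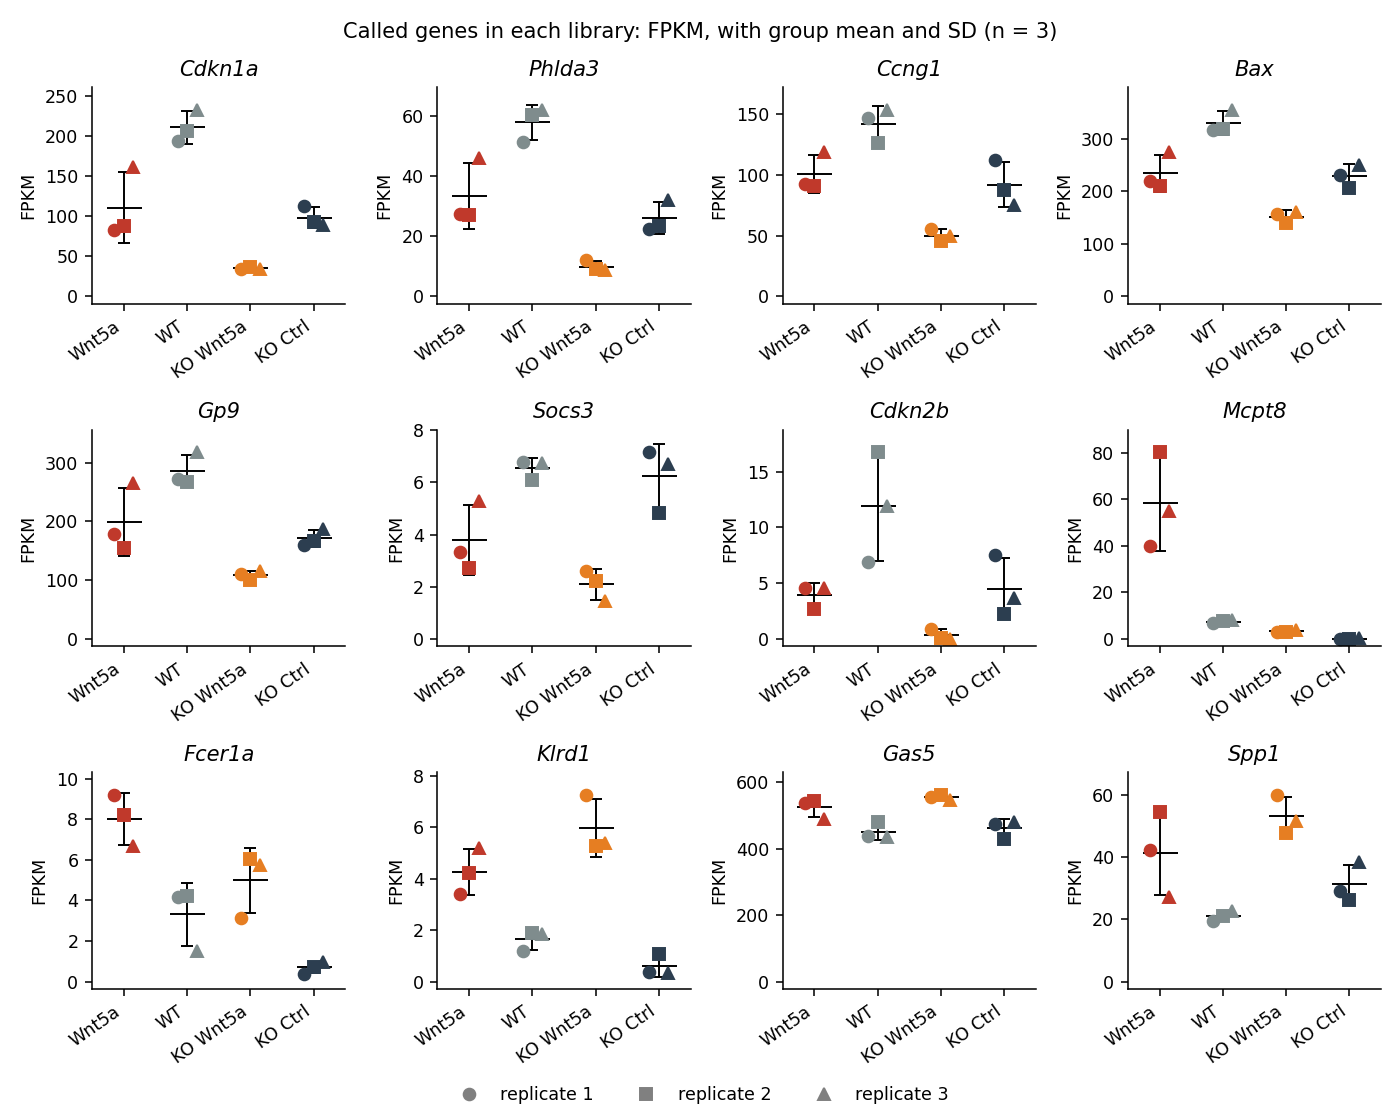
FPKM of 12 called genes in each library (points, shape by replicate number), with the mean and SD of each group of 3 (bars), for Wnt5a, WT, KO Wnt5a and KO Ctrl from left to right on a linear axis from 0. Cdkn1a, Phlda3, Ccng1, Bax and Gp9 were lower with Wnt5a in both genotypes with Wnt5a replicate 3 nearest to WT, and Mcpt8 was at 39.8 to 80.2 FPKM in Wnt5a but at no more than 4 FPKM in KO Wnt5a.

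Cdkn2b and Socs3 fell as well. Cdkn2b, which encodes the kinase inhibitor p15, had 4.59, 2.65 and 4.55 FPKM in Wnt5a, against 6.95, 16.7 and 11.9 FPKM in WT, and 0.94, 0.107 and 0 FPKM in KO Wnt5a, against 7.56, 2.27 and 3.67 FPKM in KO Ctrl. It had the largest fall of the called genes, with a wide spread in the controls (log2 fold change -1.66, SE 0.29, adjusted p = 0.0397). Socs3, a feedback inhibitor of cytokine signalling, had 3.35, 2.71 and 5.29 FPKM in Wnt5a, against 6.78, 6.11 and 6.76 FPKM in WT, and 2.61, 2.24 and 1.44 FPKM in KO Wnt5a, against 7.16, 4.82 and 6.72 FPKM in KO Ctrl (log2 fold change -0.96, SE 0.16, adjusted p = 0.0326). In both genes the libraries of the groups did not overlap. Cdkn1a and Cdkn2b were the 2 called genes among 21 tested cyclins, kinases and inhibitors of the G1 phase, beside 0.343% of all genes. The unadjusted p was below 0.05 for 3 higher and 5 lower genes of the list, beside 10.7% and 7.2% of all genes. The list had a median of 0.03, with 12 of 21 above 0, beside 59.3% of all genes. Without single libraries that median ran from -0.02 to 0.10. Rnf128, a ubiquitin ligase gene, was at 4.54 ± 2.53 FPKM in Wnt5a and 9.37 ± 1.26 FPKM in WT, and 2.62 ± 1.22 FPKM in KO Wnt5a and 6.62 ± 1.53 FPKM in KO Ctrl (log2 fold change -1.05, SE 0.20, adjusted p = 0.0481). Chek2, which encodes a checkpoint kinase upstream of p53, rose (log2 fold change 0.38, SE 0.06, adjusted p = 0.0326), with 41.6, 37.8 and 34.5 FPKM in Wnt5a, against 31.5, 31.4 and 29.6 FPKM in WT, and 43.6, 46.2 and 43.6 FPKM in KO Wnt5a, against 31.1, 33.1 and 31.3 FPKM in KO Ctrl.

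Smaller falls without overlap in either genotype were found for genes of metabolism and the cytoskeleton. Sord, which encodes sorbitol dehydrogenase, was at 326 ± 64.7 FPKM in Wnt5a and 427 ± 12.1 FPKM in WT, and 185 ± 11.98 FPKM in KO Wnt5a and 312 ± 38.4 FPKM in KO Ctrl (-0.58, adjusted p = 0.0326). Ggct, an enzyme gene of glutathione breakdown, fell by 0.42 on the log2 scale (adjusted p = 0.0326). Arhgap30, which encodes a GTPase-activating protein (-0.57, 0.0403), the kinase gene Prkd2 (-0.48, 0.0403) and the ubiquitin ligase gene Rnf19b (-0.50, 0.0397) fell too. Ftl1, which encodes ferritin light chain, was the most abundant, at 3530.1, 3266 and 4118 FPKM in Wnt5a, against 4170.1, 4253 and 4269 FPKM in WT, and 2318, 2172 and 2169.7 FPKM in KO Wnt5a, against 3321, 3343 and 3443 FPKM in KO Ctrl (log2 fold change -0.41, SE 0.07, adjusted p = 0.0359). Pseudogene copies of Ftl1 with similar sequence may share its reads. It lies next to Bax on chromosome 7 (45457944 to 45459884). Its effect was -0.60 in the knockout and -0.22 in wild type, a difference that missed the threshold (unadjusted p = 0.00202, adjusted p = 0.255). The glycolysis list had no gene called by limma among 25 and a median of -0.08, with an unadjusted p below 0.05 for 1 higher and 10 lower genes.

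Platelet genes were lower with Wnt5a in most libraries, but 1 of them passed the test. Gp9 encodes a subunit of the platelet receptor for von Willebrand factor (ENSMUSG00000030054, chromosome 6, 87778072 to 87779768). It had 178, 155 and 265 FPKM in Wnt5a, against 272, 267 and 318 FPKM in WT, and 111, 101 and 115 FPKM in KO Wnt5a, against 159.8, 167 and 187 FPKM in KO Ctrl. It fell without overlap in both genotypes, although Wnt5a replicate 3 lay just below the lowest WT library (log2 fold change -0.60, SE 0.11, adjusted p = 0.0403). The call held without Wnt5a replicate 3 and was lost without any 1 of the other 11 libraries.

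Of 34 tested megakaryocyte and platelet genes, Gp9 was called lower and none higher, beside 0.211% and 0.133% of all genes. The unadjusted p was below 0.05 for 25 lower genes and 1 higher gene, beside 7.2% and 10.7% of all genes. The list median was -0.54, with -0.28 in wild type and -0.62 in the knockout. In both genotypes 31 of 34 genes were below 0, as were 22.02% of all genes tested. By library, the median difference from the control mean was -0.45, -0.62 and 0.17 in Wnt5a, against 0.01, -0.18 and 0.16 in WT. It was -0.51, -0.64 and -0.80 in KO Wnt5a, against 0.29, -0.19 and -0.01 in KO Ctrl. Wnt5a replicate 3 was thus above WT for this list, while the other 5 Wnt5a libraries lay below all controls. Without that library 19 of the 34 were called lower, beside 357 of the 12821 genes tested, and the median was -0.69. Without KO Ctrl replicate 1, the highest control, none of the 34 was called by limma and the median was -0.48. The unadjusted p was then below 0.05 for 16 lower genes and 1 higher gene. These libraries are bulk samples, in which fewer cells that express platelet genes and less platelet RNA per cell cannot be told apart.

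Values of single platelet genes, chosen after they were seen, show the same spread. Slc6a4, the serotonin transporter gene, had 17.5, 5.17 and 76.5 FPKM in Wnt5a, against 78.4, 70.9 and 83.6 FPKM in WT, and 3.23, 0.655 and 0.689 FPKM in KO Wnt5a, against 20.6, 5.37 and 11.1 FPKM in KO Ctrl (-2.15, adjusted p = 0.118). Itgb3, which encodes an integrin subunit of the fibrinogen receptor, had 50.3, 48.4 and 96.5 FPKM in Wnt5a, against 91.2, 88.8 and 114 FPKM in WT, and 35.04, 34.2 and 36.1 FPKM in KO Wnt5a, against 73.4, 55.9 and 67.7 FPKM in KO Ctrl (-0.76, adjusted p = 0.0566). In both genes Wnt5a replicate 3 was within or near the WT range and the other Wnt5a libraries were well below it. Cavin2, a caveolar coat gene, showed a larger difference in the knockout (-1.72) than in wild type (-0.30), which did not pass as a difference between genotypes (adjusted p = 0.113). Vwf was at 177 ± 54.04 FPKM in Wnt5a and 241 ± 28.2 FPKM in WT, and 130.3 ± 4.79 FPKM in KO Wnt5a and 161 ± 43.1 FPKM in KO Ctrl (-0.37, adjusted p = 0.252). Mmrn1, which encodes a platelet matrix protein, pointed the other way (0.27, adjusted p = 0.142). F13a1, which encodes the A chain of coagulation factor XIII and was listed here with monocytes, fell (log2 fold change -1.48, SE 0.25, adjusted p = 0.0361), with 2.11, 1.66 and 4.72 FPKM in Wnt5a, against 8.09, 5.05 and 4.27 FPKM in WT, and 0.208, 0 and 0 FPKM in KO Wnt5a, against 3.95, 3.54 and 3.06 FPKM in KO Ctrl. Its wild-type groups overlapped, and its effect was -2.08 in the knockout and -0.87 in wild type (difference unadjusted p = 0.00772).

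**Figure D2:**
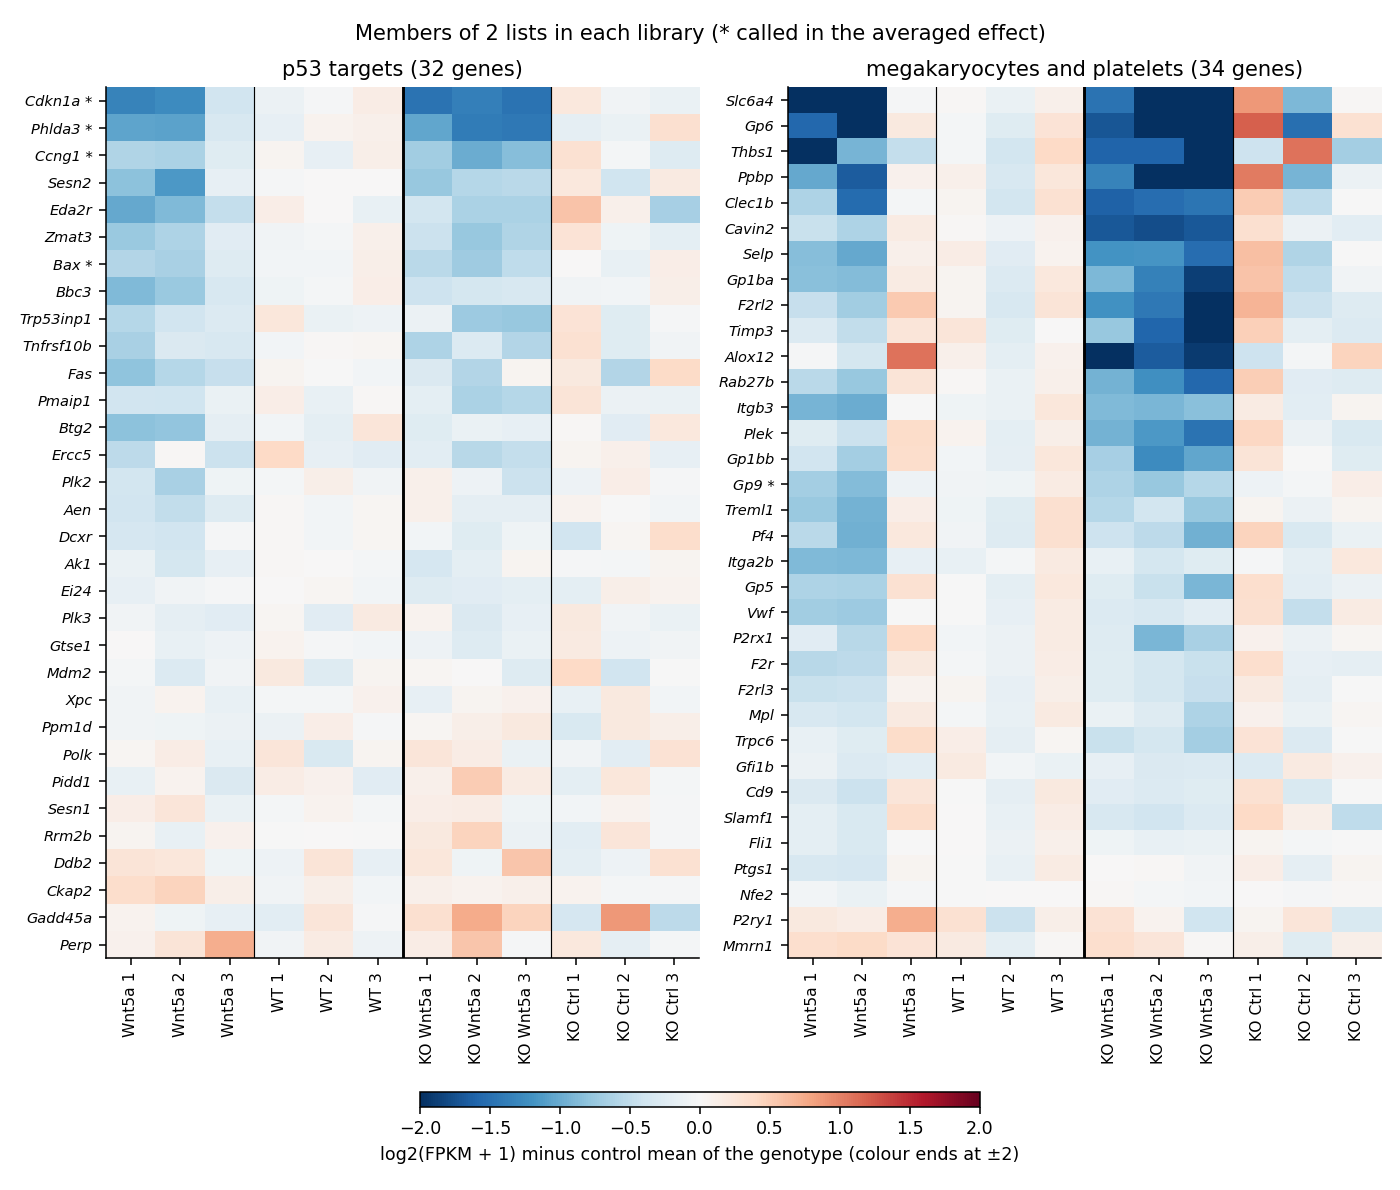
Members of the p53 target list (left) and the megakaryocyte and platelet list (right) in each of the 12 libraries, as log2(FPKM + 1) minus the mean of the 3 control libraries of the same genotype; colours end at ±2, rows are ordered by the averaged effect and asterisks mark the called genes. Cdkn1a, Phlda3, Ccng1 and Bax are blue in all 6 Wnt5a libraries, while the column of Wnt5a replicate 3 is near 0 or above for most of the platelet genes.

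The genes Mcpt8 and Fcer1a, known from basophils, rose with Wnt5a. Mcpt8 encodes a serine protease of basophils (ENSMUSG00000022157, chromosome 14, 56082166 to 56085273). It had 39.8, 80.2 and 55.2 FPKM in Wnt5a, against 6.69, 7.72 and 7.998 FPKM in WT, and 2.85, 3.08 and 3.996 FPKM in KO Wnt5a, against 0, 0 and 0.564 FPKM in KO Ctrl. The groups did not overlap in either genotype, and the level in KO Wnt5a stayed below that of the WT libraries (by limma, log2 fold change 2.32, SE 0.20, adjusted p = 0.000227). Fcer1a, which encodes the chain of the IgE receptor that binds IgE, had 9.21, 8.22 and 6.67 FPKM in Wnt5a, against 4.19, 4.23 and 1.53 FPKM in WT, and 3.14, 6.06 and 5.76 FPKM in KO Wnt5a, against 0.387, 0.738 and 0.953 FPKM in KO Ctrl (log2 fold change 1.46, SE 0.22, adjusted p = 0.0211). These were the 2 called genes among 20 of 41 listed mast cell and basophil genes that passed the filter, beside 0.133% of all genes called higher. The filter also admits genes that are high with Wnt5a only, such as Prss34 below, which favours counts of higher genes. In the list the unadjusted p was below 0.05 for 8 higher genes and 1 lower gene, beside 10.7% and 7.2% of all genes. The median was 0.27 over the genotypes, 0.00 in wild type and 0.37 in the knockout. It was 0.15 without KO Ctrl replicate 1, 0.13 with library weights and 0.03 over the 9 genes with a mean of at least 5 FPKM.

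The 5 defining markers Mcpt8, Prss34, Cpa3, Ms4a2 and Fcer1a summed to 79.6 to 165 FPKM in Wnt5a, against 15.2 to 17.7 in WT. They summed to 10.1 to 10.9 in KO Wnt5a, against 1.10 to 3.21 in KO Ctrl. The sums were thus separate in both genotypes but on different levels, and the part of other cells in these values was not tested. The difference between genotypes was largest for Prss34, another basophil protease gene, at 19.1, 54.2 and 34.8 FPKM in Wnt5a and no more than 0.024 FPKM in the other 9 libraries. Its averaged effect was not called (2.55, adjusted p = 0.173), and the difference between genotypes was (-5.07, SE 0.38, adjusted p = 8.26e-05). Cpa3, the gene of mast cell carboxypeptidase, had 8.34, 18.6 and 11.8 FPKM in Wnt5a, against 5.06, 3.18 and 4.71 FPKM in WT, and 2.94, 1.798 and 0.414 FPKM in KO Wnt5a, against 0.902, 0 and 0.795 FPKM in KO Ctrl (1.04, adjusted p = 0.0986). Ccl9, a chemokine gene, was at 11.2 ± 2.899 FPKM in Wnt5a and 6.44 ± 1.87 FPKM in WT, and 1.14 ± 0.29 FPKM in KO Wnt5a and 0.242 ± 0.314 FPKM in KO Ctrl (0.76, 0.0584). Ms4a2, which encodes another chain of the IgE receptor, gave effects of opposite sign in wild type and the knockout (0.83 and -0.39; averaged 0.22, adjusted p = 0.705). Granulocyte markers summed to 71.4 to 99.8 FPKM in Wnt5a, against 57.8 to 67.02 in WT, and to 5.07 to 8.13 in KO Wnt5a, against 6.43 to 10.3 in KO Ctrl.

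Klrd1, which encodes the CD94 chain of natural killer cell receptors (ENSMUSG00000030165, chromosome 6, 129591782 to 129598775), had 3.405, 4.22 and 5.18 FPKM in Wnt5a, against 1.18, 1.895 and 1.84 FPKM in WT, and 7.26, 5.27 and 5.39 FPKM in KO Wnt5a, against 0.36, 1.05 and 0.349 FPKM in KO Ctrl. It rose without overlap in both genotypes (log2 fold change 1.57, SE 0.21, adjusted p = 0.0145) and remained called without any 1 of 10 of the 12 libraries. The effect was 2.15 in the knockout and 0.99 in wild type, and that difference also missed the threshold (unadjusted p = 0.00183, adjusted p = 0.252). It was the called gene among 14 of 33 listed T cell and NK cell genes that passed the filter, beside 0.133% of all genes called higher. The unadjusted p was below 0.05 for 9 higher genes and 1 lower gene of the list, beside 10.7% and 7.2% of all genes. The filter favours counts of higher genes here too, as Il2rb below reached 1 FPKM only in libraries with the Wnt5a label. The list median was 0.43, and 0.19 with no limma call over the 4 genes with a mean of at least 5 FPKM. Il2rb, a receptor chain for interleukins 2 and 15 chosen after its values were seen, had 1.23, 1.35 and 0.992 FPKM in Wnt5a, against 0.722, 0.816 and 0.579 FPKM in WT, and 1.17, 1.05 and 3.03 FPKM in KO Wnt5a, against 0.119, 0.104 and 0.191 FPKM in KO Ctrl (0.78, adjusted p = 0.0828). Il15ra, which encodes the alpha chain of the interleukin 15 receptor, rose (log2 fold change 0.59, SE 0.11, adjusted p = 0.0403), with 19.5, 21.05 and 16.1 FPKM in Wnt5a, against 15.3, 12.1 and 11.6 FPKM in WT, and 23.2, 31.5 and 25.8 FPKM in KO Wnt5a, against 13.6, 18.7 and 17.5 FPKM in KO Ctrl. Cd3e, which defines T cells, was at 0 in all 12 libraries. Of genes known from NK cells that did not pass the filter, Gzma was also at 0 in all 12. Prf1, Ncr1, Klrk1 and Klrb1c were at no more than 0.159, 0.308, 0.782 and 0.875 FPKM. Cd28 pointed the other way (-0.77, adjusted p = 0.0835).

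Other genes that rose varied in function. Spp1, which encodes osteopontin, had 42.2, 54.4 and 27.2 FPKM in Wnt5a, against 19.4, 21.1 and 22.7 FPKM in WT, and 59.9, 47.6 and 51.6 FPKM in KO Wnt5a, against 28.9, 26.2 and 38.3 FPKM in KO Ctrl (log2 fold change 0.82, SE 0.14, adjusted p = 0.0397), with Wnt5a replicate 3 again nearest to WT. Gas5, a noncoding host gene of small nucleolar RNAs, had 539, 544 and 491 FPKM in Wnt5a, against 437, 481 and 437 FPKM in WT, and 555, 563 and 548 FPKM in KO Wnt5a, against 473, 430.3 and 481 FPKM in KO Ctrl (log2 fold change 0.24, SE 0.04, adjusted p = 0.0403). Gnl3, which encodes the nucleolar protein nucleostemin, was at 143 ± 13.9 FPKM in Wnt5a and 119 ± 5.69 FPKM in WT, and 154 ± 8.84 FPKM in KO Wnt5a and 122 ± 4.21 FPKM in KO Ctrl (0.30, adjusted p = 0.0403). Gas5 overlaps Zbtb37, and Gnl3 overlaps Pbrm1 and small nucleolar RNAs, in libraries that keep no strand. Fgfr1op, a centrosome gene (0.45, 0.0379), and Cnot2, a subunit gene of the CCR4-NOT deadenylase (0.37, 0.0489), rose in both genotypes. So did Abhd17c, which encodes a depalmitoylating enzyme (0.32, 0.0326), Tpd52 (0.32, 0.041), Paxbp1 (0.39, 0.0397) and the zinc finger gene Zfp930 (0.45, 0.0403).

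Most genes of mitosis had averaged effects above 0, without a call. Of 61 tested, limma called none over all genes, the unadjusted p was below 0.05 for 26 higher genes and 1 lower gene, and 57 were above 0, beside 59.3% of all genes. The median was 0.15 over the genotypes, 0.30 in wild type and 0.03 in the knockout. By library it was 0.41, 0.35 and 0.14 in Wnt5a, against -0.01, 0.05 and -0.05 in WT. It was 0.09, 0.04 and -0.07 in KO Wnt5a, against 0.02, -0.05 and 0.04 in KO Ctrl, so the knockout groups overlapped. Mki67, a marker of dividing cells, had 21.7, 21.6 and 16.4 FPKM in Wnt5a, against 13.6, 15.2 and 13.6 FPKM in WT, and 27.5, 26.1 and 24.2 FPKM in KO Wnt5a, against 21.5, 20.8 and 24.4 FPKM in KO Ctrl (0.34, adjusted p = 0.0889). Without Wnt5a replicate 3, 5 of the 61 were called higher, beside 298 of the 12821 genes tested. LT-HSC genes gave no limma call among 38, with an unadjusted p below 0.05 for 9 higher and 5 lower genes and a median of 0.06. Procr, the gene of the stem cell receptor EPCR, was at 8.19 ± 0.494 FPKM in Wnt5a and 4.88 ± 0.757 FPKM in WT, and 7.97 ± 0.424 FPKM in KO Wnt5a and 6.28 ± 2.52 FPKM in KO Ctrl (0.51, adjusted p = 0.124).

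**Figure D3:**
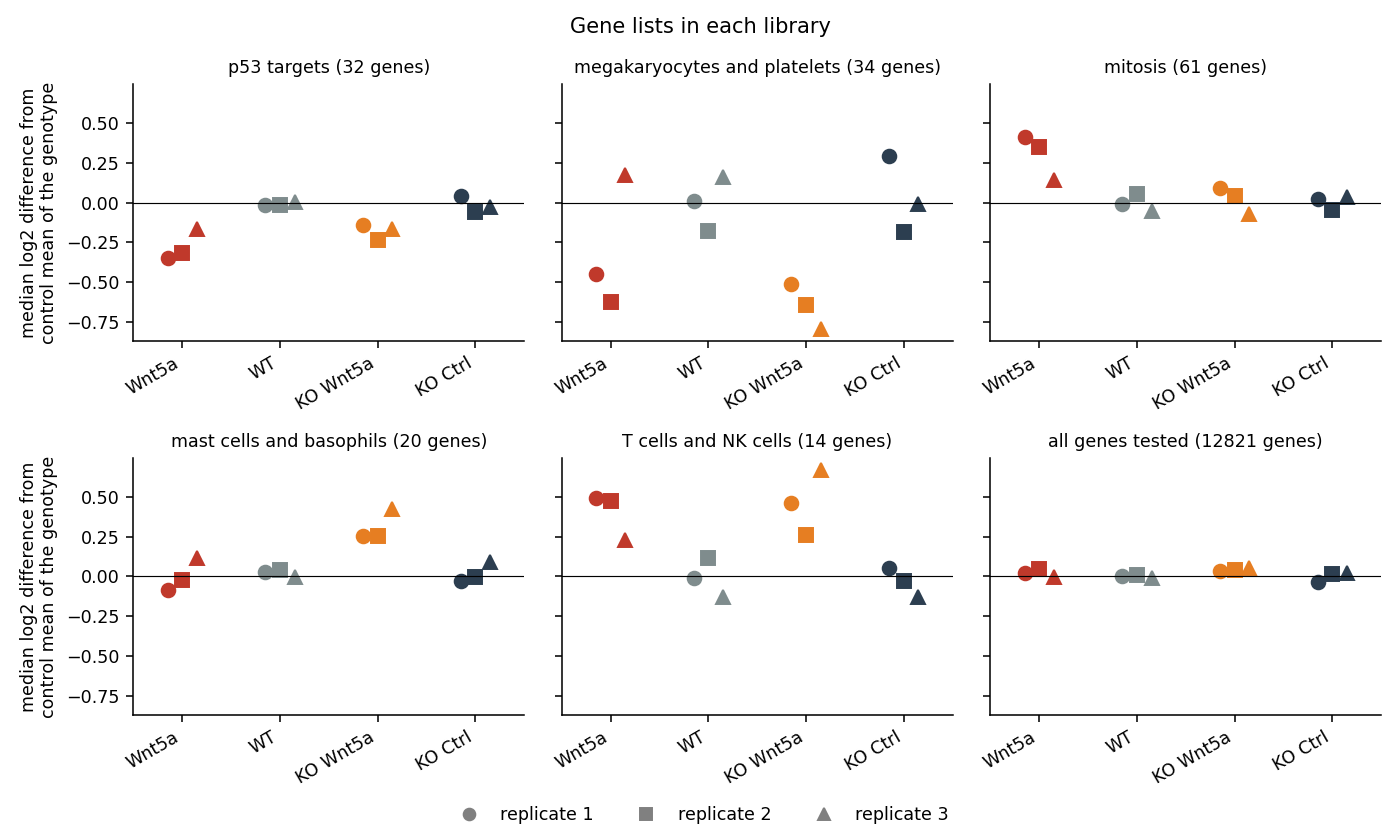
Median over the genes of a list of log2(FPKM + 1) minus the control mean of the genotype, for each library (points, shape by replicate number), in 5 lists and over all 12821 genes tested. The p53 targets are lower in all 6 Wnt5a libraries, the platelet genes in 5 of 6, and the mitotic genes lie at 0.14 to 0.41 in Wnt5a and at -0.07 to 0.09 in KO Wnt5a, a difference between genotypes that was not tested for the list.

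Genes of the Wnt pathway itself did not pass the test. Of 38 listed Wnt ligands, receptors and planar polarity genes 16 passed the filter, none of them was called by limma, the unadjusted p was below 0.05 for 1 higher and 1 lower gene, and the median was 0.08. Ryk, a co-receptor for Wnt5a, had 10.5, 12.2 and 11.4 FPKM in Wnt5a, against 8.52, 9.08 and 9.34 FPKM in WT, and 16.4, 15.2 and 12.3 FPKM in KO Wnt5a, against 10.7, 15.4 and 13.3 FPKM in KO Ctrl (0.23, adjusted p = 0.243). Ror2, the other co-receptor, was below the filter at no more than 0.293 FPKM. Daam1, a formin gene of planar polarity signalling, gave -0.49 (adjusted p = 0.163). Of the canonical Wnt targets and inhibitors 10 of 23 were tested, with no limma call, an unadjusted p below 0.05 for 2 higher genes and no lower one, and a median of 0.09. Axin2, the usual target of beta-catenin signalling, was at no more than 0.262 FPKM. The 24 tested genes of calcium, calcineurin and NFAT gave no limma call, with an unadjusted p below 0.05 for 1 higher and 2 lower genes and a median of 0.02. Of 12 listed Hoxb genes and transcripts, 3 were tested, none was called by limma or had an unadjusted p below 0.05, and their median was 0.20.

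The number of calls differed between the genotypes and depended on the setting. Taken alone, Wnt5a against WT called 8 genes (0.0624%), 7 higher (0.0546%) and 1 lower (0.0078%), and KO Wnt5a against KO Ctrl called 152 (1.19%), 51 higher (0.398%) and 101 lower (0.788%). With library weights there were 1563 calls in wild type and 83 in the knockout, and without Wnt5a replicate 3 there were 149 in wild type. Of the 44 genes of the average, 35 had the larger effect in the knockout and 9 in wild type. Across the 12821 genes, which are not independent, the 2 effects had a Pearson correlation of 0.10 and a Spearman correlation of 0.19, with no library in common, and 57.6% of genes had the same sign. The difference between the genotypes passed the test for 10 genes (0.078%), none of them among the 44. The fit of the average counts a difference between genotypes as spread, which disfavours a call of such genes. Of the 44, 8 had an unadjusted p below 0.05 for the difference, as did 9.81% of all genes. The 5 called genes with the smallest such p were Klrd1, Ftl1, F13a1 and the noncoding models Gm33370 and Gm32051. Gm33370 had 13.02, 14.3 and 14.6 FPKM in Wnt5a, against 17.1, 17.8 and 19.4 FPKM in WT, and 6.18, 5.62 and 4.91 FPKM in KO Wnt5a, against 11.5, 11.1 and 11.3 FPKM in KO Ctrl, with effects of -0.35 and -0.91 (unadjusted p = 0.00261). In Gm32051 they were -0.53 in wild type and -1.17 in the knockout (unadjusted p = 0.00912). Both models fell on average (-0.63 and -0.85, adjusted p = 0.0326 and 0.0294).

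**Figure D4:**
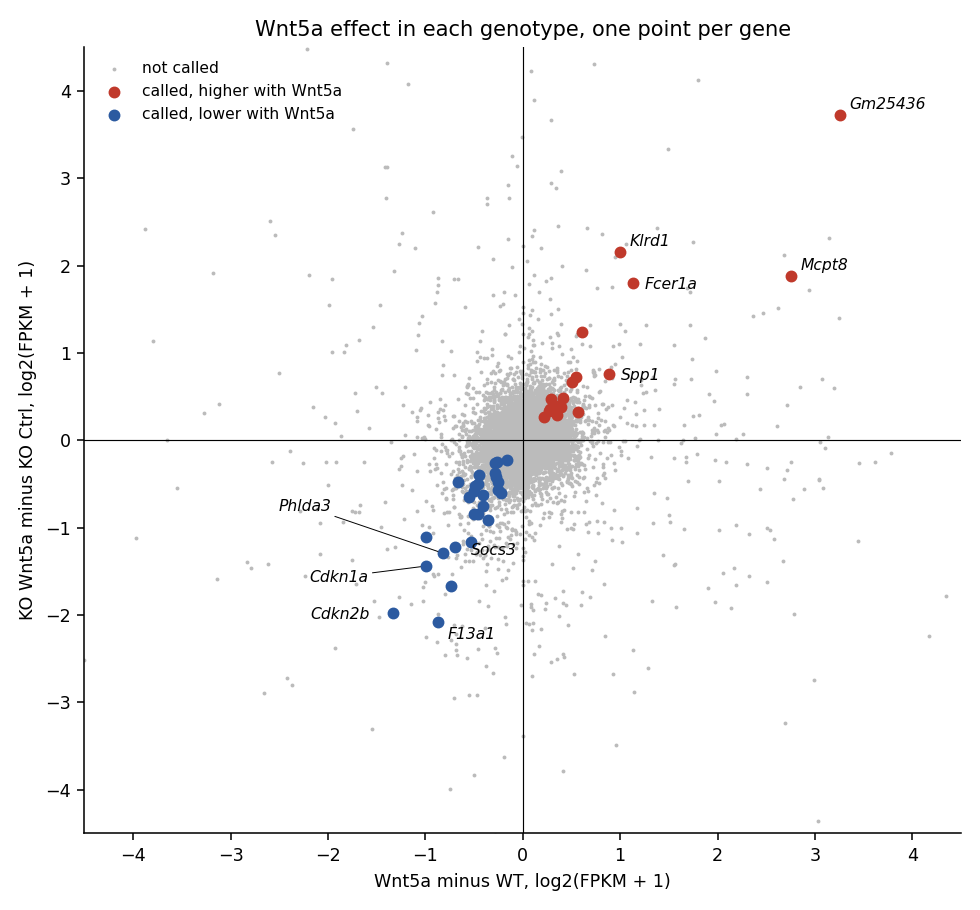
Wnt5a minus WT (horizontal) against KO Wnt5a minus KO Ctrl (vertical), both as differences of log2(FPKM + 1), with 1 point for each of the 12821 genes tested and the 44 called genes in colour; 22 genes lie outside the axes, which end at ±4.5. All called genes lie to the lower left or the upper right of 0, which a call on the average favours.

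The smallest adjusted p belonged to Gm25436, a small nucleolar RNA model of 145 bases within the immunoglobulin kappa locus (ENSMUSG00000088900, chromosome 6, 68257394 to 68257538, minus strand). It was at 13.1, 6.66 and 7.04 FPKM in Wnt5a and 25.4, 6.02 and 11.6 FPKM in KO Wnt5a, and listed at 0 in all 6 controls (difference on the log2(FPKM + 1) scale 3.49, SE 0.27, adjusted p = 0.000139). With the controls at 0, Gm25436 passed the filter only through libraries with the Wnt5a label. FPKM of so short a transcript rests on few fragments. The variable segment Igkv14-111, chosen after its values were seen, begins at 68256389 and ends at 68256869 on the same chromosome. It had 0.674, 0.685 and 0.362 FPKM in Wnt5a and 2.32, 0.155 and 0.448 FPKM in KO Wnt5a, and was also at 0 in the 6 controls. Among all 44338 genes without missing values these 2 were the ones above 0 in all 6 Wnt5a libraries and at 0 in all 6 controls, and 1, the noncoding 2410003L11Rik, had the reverse pattern. In the 6 libraries with the reserve label, none of which carries the Wnt5a label, Gm25436 ranged from 0 to 23.1 FPKM and Igkv14-111 from 0 to 287 FPKM.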

How the data were processed

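RNA-seq was analysed in 12 of 18 libraries of sorted LT-HSC. Libraries were made with SMARTer ultra low input and Nextera reagents, per the labels, which keep no strand. Listed in the submitters' processing notes are the mm10 assembly, TopHat2 2.0.10, Cufflinks and CASAVA 1.8.2. The authors deposited 1 table of FPKM for 44349 Ensembl genes; the unit was judged from the values. GENCODE M21 gave symbols for 44022. The 11 genes with missing values in the 12 libraries were left out.

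Values were fitted as log2(FPKM + 1) with genotype and Wnt5a as additive terms in limma 3.58.1 (R 4.3.3), with trend and robust moderation, for genes reaching 1 FPKM in 3 or more libraries. Single genotypes and their difference came from a fit with 1 mean per group. The model was tested on simulated data. Depth was inferred from the lowest frequent value of 5814 single-transcript genes. At the shallowest library 3 fragments on a 1 kb transcript are 0.140 FPKM, counting error only. Replicate number was not used to pair libraries in the main fit, as no label ties it to an animal or day. Deviations of same-numbered libraries correlated at -0.10 to 0.10, and those of differently numbered libraries at -0.16 to 0.10, which cannot exclude pairs.

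Named were Wnt5a and the sort gate genes; the 12 genes that rose and fell most among called genes without overlap in either genotype, with a mean of 5 FPKM or more in the higher group of both genotypes and without unnamed models, pseudogenes and small RNAs (11 and 12 passed); up to 4 called genes of lists with at least 2; and the 5 called genes with the smallest interaction p. The genes, the 37 lists and the rule were chosen with earlier results of these data known. Plots and summaries used Python 3.11.15, numpy 2.4.6, pandas 2.3.3 and matplotlib 3.10.9. Alternatives are given in the closing section.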

Additional observations from a re-analysis of the deposited data

Results flagged for a closer look

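The effect of Wnt5a differed between knockout and wild type for 10 genes by limma's test of the difference itself, given here as knockout minus wild type on the log2 scale. Prss34, the basophil protease gene described above, gave -5.07. Tyrobp, which encodes the signalling adaptor DAP12, gave 2.09 (adjusted p = 0.0187), with 14.4, 17.4 and 17.8 FPKM in KO Wnt5a, against 1.45, 2.02 and 3.42 FPKM in KO Ctrl, and 15.9, 19.9 and 12.2 FPKM in Wnt5a, against 11.4, 13.9 and 10.97 FPKM in WT. KO Ctrl was the group that stood apart. Tubb6, a beta-tubulin gene, gave -1.76, with 17.5, 24.1 and 17.2 FPKM in KO Wnt5a, against 98, 68.6 and 105 FPKM in KO Ctrl, and 78.02, 56.5 and 68.4 FPKM in Wnt5a, against 91.2, 78.9 and 95.3 FPKM in WT. Here KO Wnt5a stood apart from the other groups.

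Rpl39l, a ribosomal protein-like gene, gave 3.20, with 8.53, 10.02 and 12.5 FPKM in KO Wnt5a and no more than 1.06 FPKM in any other library. Ppef2, a phosphatase gene, gave -2.35, with 0, 0.245 and 0.046 FPKM in KO Wnt5a, against 2.43, 2.78 and 2.701 FPKM in KO Ctrl. The gene models 3830403N18Rik and Gm128 gave -2.49 and -2.21; 3830403N18Rik was listed at 0 in KO Wnt5a, against 3.43, 2.92 and 1.902 FPKM in KO Ctrl, and Gm128 had 0.793, 0.783 and 0.683 FPKM in KO Wnt5a, against 6.61, 9.04 and 14.1 FPKM in KO Ctrl. The microRNA model Gm22174 gave -3.38 and was listed at 0 in 9 libraries, with 17.2, 5.03 and 9.28 FPKM in KO Ctrl.

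The immunoglobulin heavy chain segments Ighv5-9-1 and Ighv1-26 gave 4.14 and -2.52. Ighv5-9-1 was at 27.8, 13.7 and 14.4 FPKM in KO Wnt5a and listed at 0 in KO Ctrl, and Ighv1-26 was listed at 0 in KO Wnt5a, against 3.53, 4.13 and 4.83 FPKM in KO Ctrl. None of these 10 genes was called in the averaged effect, whose fit counts a difference between genotypes as spread.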

How the results depend on the processing

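The number of genes called in the averaged effect, 44, became 30 after quantile normalization, 37 after median-ratio scaling, 39 with a pseudocount of 0.1 and 57 with a length trend removed. It was 2 without a filter or without trend and robust moderation, 90 with a mean of at least 5 FPKM, 188 with nuclear coding genes of at least 300 bases, 722 with library weights, 178 with 1 mean per group and 163 with all 18 libraries. With replicate number as a block, which no label ties to an animal or day, it was 170, and 31 in wild type. In wild type, where 8 were called, it was 4 with a pseudocount of 0.1, a mean of at least 5 FPKM or nuclear coding genes, 22 without a filter and 1563 with library weights. In the knockout the 152 calls were 29 without a filter, 231 with nuclear coding genes and 83 with weights. The 10 differences between genotypes were 16 without a filter or with nuclear coding genes, 20 with weights, and 0 by limma at a mean of at least 5 FPKM, with 977 at an unadjusted p below 0.05. Leaving out 1 library gave 2 to 655 calls in the average, 2 to 149 in wild type, 49 to 268 in the knockout and 7 to 25 for the difference, with 655, 149 and 268 without Wnt5a replicate 3, 49 without KO Wnt5a replicate 2 and 25 without KO Ctrl replicate 3. The causes were not tested.

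No called gene changed sign in any of these settings. Kit, which was not called, gave log2 fold changes of -0.018 with quantile normalization, -0.010 with median-ratio scaling, -0.012 with the length trend removed, and -0.062 to 0.10 without single libraries. The p53 target median ran from -0.28 to -0.17, the megakaryocyte and platelet median from -0.69 to -0.44 and the mitosis median from 0.11 to 0.24. With 3 libraries a group and inferred depth, differences between groups that both lie near the floor may not be detectable. The calls of Cdkn2b, F13a1, Mcpt8, Cryab and Gm25436 include a group with values at or near 0 FPKM, so they rest in part on values near the floor.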

Other observations

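The lists of this paragraph gave no gene past the threshold and were chosen after their values were seen. Cytosolic ribosomal protein genes lay slightly below 0 in the average, at a median of -0.06 with 70 of 77 genes below 0, with -0.17 in wild type and 0.06 in the knockout. By library the list lay at -0.05, 0.07 and 0.18 in KO Wnt5a, against -0.11, 0.02 and 0.08 in KO Ctrl, so the knockout groups overlapped, and the difference between genotypes was not tested for the list. Genes of the mitochondrial genome had a median of 0.35 in wild type and -0.38 in the knockout over 11 genes, with -0.02 in the average and 0.09 without KO Ctrl replicate 1. By library they lay at -0.36, -0.40 and -0.33 in KO Wnt5a, against 0.32, 0.04 and -0.31 in KO Ctrl. The 44 genes of DNA replication had a median of 0.04, which ran from -0.01 to 0.08 without single libraries, with 5 higher and 1 lower at an unadjusted p below 0.05 and no limma call, and the 34 interferon response genes a median of 0.09, with 3 higher and 1 lower and no limma call.

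The genes that follow were chosen after their values were seen. Rarg, which encodes the retinoic acid receptor gamma, narrowly missed the threshold, with 2.47, 2.55 and 3.61 FPKM in Wnt5a, against 4.47, 3.77 and 4.53 FPKM in WT, and 1.605, 1.42 and 2.09 FPKM in KO Wnt5a, against 3.905, 2.95 and 3.34 FPKM in KO Ctrl (-0.58, adjusted p = 0.051). The groups did not overlap in either genotype. Rb1, which encodes the retinoblastoma protein that holds cells in G1, had 160.3, 149 and 154 FPKM in Wnt5a, against 143, 121 and 127 FPKM in WT, and 189, 183 and 171 FPKM in KO Wnt5a, against 158, 123 and 125 FPKM in KO Ctrl (0.33, adjusted p = 0.0541). The Wnt5a libraries were above the controls of their own genotype, without overlap. Cryab, a small heat shock protein gene that was called, had 1.52, 1.605 and 1.33 FPKM in Wnt5a, against 0.83, 0.517 and 0.57 FPKM in WT, and 1.99, 1.06 and 2.28 FPKM in KO Wnt5a, against 0.082, 0.024 and 0.396 FPKM in KO Ctrl (log2 fold change 0.92, SE 0.17, adjusted p = 0.0397). Every control value of Cryab was below 1 FPKM, so it passed the filter only through libraries with the Wnt5a label. Its KO Ctrl values of 0.082 and 0.024 FPKM were below 0.140 FPKM, the level of 3 fragments on a 1 kb transcript at the shallowest library. F2rl2, a platelet thrombin receptor gene, lies within the span of Iqgap2 on the opposite strand. Iqgap2 was called lower (log2 fold change -0.65, SE 0.12, adjusted p = 0.0397), and its wild-type groups overlapped. Whether exons of the 2 genes overlap, where reads without strand could not be told apart, was not tested.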
